A study of Cucumis melo with 8 samples.

Results

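The step from 20 to 30 days after flowering (DAF) takes Hami melon fruit from expanding flesh to premature fruit at the onset of ripening. It was followed here in the small RNA of the fruit mesocarp, the edible flesh, of the melon variety ‘Flavor No. 4’ (Cucumis melo). The comparison used 4 of the 8 libraries of the series, which are the 20DAF and 30DAF libraries of each batch, and the libraries of 10 and 40DAF entered only the estimate of spread and the course over stages. All flowers were hand-pollinated in a greenhouse, and no genotype or treatment differed between the groups. The first-batch libraries came from a pool of 3 fruits per stage and were read single-end on an Illumina GAIIx. The second-batch libraries, made a season later, came from 1 fruit per stage and were read paired-end on an Illumina NextSeq, so the season, the sequencer and how many fruits were pooled cannot be told apart. Each group therefore had 1 library per batch. The p values measure the spread between libraries of the same stage, estimated over all 8 libraries, and the main model had no term for the batch.

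The values are normalised read counts called TPM, which relate the reads of a miRNA to a total read count and carry no correction for length. The table holds 116 miRNA names that carry 71 distinct mature sequences in 30 families, and each sequence was counted once under its joined names (miR164c/d for miR164c and miR164d). The low values of each library were whole multiples of the value of 1 read, which implies totals of 105077 to 985271 reads per library over the series. These totals are far below the clean reads that the paper lists for each library. The TPM are therefore shares within a smaller pool of reads, the make-up of which is not stated. The totals at 20DAF were 360148 and 985271 reads (first and second batch), and at 30DAF they were 410946 and 105077. A count of 3 reads, taken as the detection floor, corresponds to 3.04 to 28.6 TPM in these 4 libraries, so a miRNA of low level was seen least well at 30DAF in the second batch. The table holds miRNAs only, so the labelled tissue was not checked against marker genes, and fewer cells of a type cannot be told apart from less RNA per cell.

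Plant miRNAs are cut by DICER-LIKE 1 from folded precursors, are loaded into ARGONAUTE 1 and direct the cleavage or translational block of mRNAs to which they pair almost fully. Most conserved families act on transcription factors. In Arabidopsis, miR164 acts on NAC genes, miR169 on NF-YA subunits, miR166 on HD-ZIP III genes, miR319 on TCP genes, miR159 on GAMYB-like genes, miR396 on growth-regulating factors (GRFs), miR156 on SPL genes and miR172 on AP2-like genes. In tomato, an SPL gene, an AP2 gene and several NAC genes are known regulators of ripening.

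The sequences on which the comparison turned are printed below as deposited, in the DNA alphabet from the 5′ end to the 3′ end, with the seed (bases 2 to 8) in capitals. They are the members of the miR164 family that carried most of its reads, the 4 members of miR169 with the largest changes, the main miR166 sequence and its shorter form, the miR319 and miR159 sequences, and the pair of miR396 sequences that took most reads or lost most of them.
miR164c/d: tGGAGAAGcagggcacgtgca
miR164a: tGGAGAAGcagggcacgtgct
miR169t: tGAGCCAAgaatgacttgccggc
miR169k: tGAGCCAAggatgacttgcct
miR169i/j/l/m: tAGCCAAAaatgacttgcctgc
miR169g: aAGCCAAGgatgaattgccgg
miR166a/b/c/d/f/h: tCGGACCAggcttcattcccc
miR166g: tCGGACCAggcttcattccc
miR319a/b: tTGGACTGaagggagctccc
miR319c/d: tTGGACTGaagggagctcct
miR159a: tTTGGATTgaagggagctcta
miR159b: aTTGGATTgaagggagctcct
miR396b: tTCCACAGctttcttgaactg
miR396a/c/d: tTCCACAGctttcttgaactt
Several of these differ at an end only. With positions counted from 1 at the 5′ end and the base of the first-named sequence given first, the difference from miR164a to miR164c/d is T21A, that from miR396a/c/d to miR396b is T21G, and that from miR319a/b to miR319c/d is C20T. The sequence of miR166g is that of miR166a/b/c/d/f/h without its last base. Among the 71 sequences there were 40 seeds, of which 17 were shared by several sequences and 0 were shared between families. The authors allowed 1 mismatch in matching reads to known miRNAs, so reads of such neighbours may have been split between them. Their separate values are uncertain, while sums within a family are less so. The exception is miR159b, which without its first base differs from miR319c/d at 1 base. Reads may thus also have been split between the miR159 and miR319 families, which was not tested.

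The fruit at 30DAF held more miR164 and miR169 and less miR319 than the fruit at 20DAF in both batches, while 26 of the 71 sequences moved in opposite directions in the batches. In the first batch 34 sequences were higher at 30DAF, 30 were lower and 7 were equal. In the second batch 45 were higher, 17 were lower and 9 were equal. The median change in log2(TPM + 5) over the 66 sequences read in at least 1 of the 4 libraries was 0.03 for the first batch but 0.68 for the second. The medians over all 71 were 0.00 and 0.53 as deposited, −0.25 and −0.11 with a scaling to the families outside miR159, miR319 and miR396, −0.28 and 0.39 on the sum of the 71 sequences, and 0.00 and 0.00 both by the median ratio and when miR164 was also left out of the first of these scalings. Changes ran from −4.08 to 2.72 in the first batch and from −2.03 to 4.28 in the second.

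Over both batches, 25 sequences were higher at 30DAF and 9 were lower, and 11 had a change of 0 in a batch. A change of more than 1 on the log2(TPM + 5) scale in both batches was found for 8 higher sequences (11.3% of all) and 2 lower ones (2.82%). The exact 95% interval of the ratio of read shares, which covers counting error only, lay above 1 in both batches for 10 sequences (14.1%) and below 1 in both for 4 (5.63%), and lay on opposite sides of 1 for 5. Both 30DAF libraries were above both 20DAF libraries for 19 sequences (26.8%) and below both for 5 (7.04%). Across the 71 sequences the changes of the batches had a Pearson correlation of 0.288 and a Spearman correlation of 0.252, given as a description of sequences that share their 4 libraries. Among the 34 sequences with over 3 reads in all 4 libraries, 24 moved the same way, 19 upwards and 5 downwards, with a Pearson correlation of 0.416 and a Spearman correlation of 0.492.

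**Figure D1:**
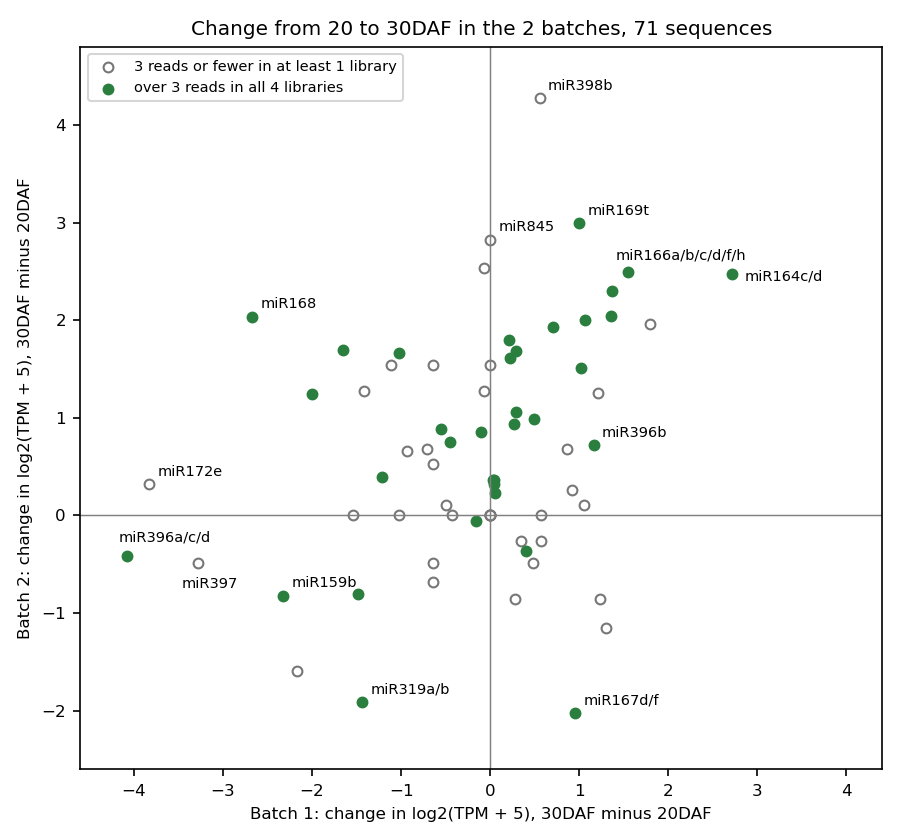
Change from 20 to 30DAF in log2(TPM + 5) in the first batch (x axis) and the second batch (y axis) for the 71 sequences, 1 point each. Filled points have over 3 reads in all 4 libraries and open points 3 reads or fewer in at least 1. The upper right part holds the 25 sequences higher at 30DAF in both batches, with miR164c/d at 2.72 and 2.48, and the lower left part holds the 9 lower in both.

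In a limma model of the 4 stages, 4 of 71 sequences passed an unadjusted p under 0.05 with a fold over 1.5 (5.63%). A threshold of 0.05 gives 3.55 on average. Those higher at 30DAF were miR164c/d, miR166a/b/c/d/f/h and miR169t (4.23%), and the lower 1 was miR159b (1.41%). The number past a Benjamini-Hochberg adjusted p of 0.05 in limma was 0 (0%), with 4 at an unadjusted p under 0.05 and a smallest adjusted p of 0.639. The count by voom on recovered reads was also 0, with 5 at an unadjusted p under 0.05. The split of 3 higher and 1 lower depended on scaling. It was 1 higher and 6 lower with a scaling to the families outside miR159, miR319 and miR396, 3 and 3 when scaled by the median ratio, 1 and 1 when scaled on the sum of the 71 sequences, and 2 and 3 with a scaling to the families outside miR159, miR319, miR396 and miR164. Without the 30DAF library of the second batch the count was 0, and without the 20DAF library of the first batch it was 2. In the model with a batch block 5 sequences passed, these 4 and miR169k (unadjusted p = 0.0254). With 2 libraries against 2, no exact permutation test could reach 0.05.

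Summed by family, 10 of the 30 families were higher at 30DAF in both batches, 4 were lower in both, 13 moved in opposite directions and 3 had a change of 0 in a batch. Both 30DAF libraries were above both 20DAF libraries for 5 families (16.7%) and below both for 2 (6.67%). Past the unadjusted threshold in limma were 3 families (10%), with miR164 and miR169 higher and miR319 lower, and after adjustment over the 30 families 1 remained (3.33%), which was miR164. These directions were compared over 5 scalings, which are the deposited values and the 4 rescalings named above. The families higher in both batches under all 5 were miR164, miR166 and miR169, and those lower in both under all 5 were miR319, miR397, miR2111 and miR477. miR477 rests on 1 read at each stage in the first batch and on 3 reads and then 0 in the second, so its first-batch difference came from the library totals alone, and miR397 had 2 reads and then 0 in the second batch. Of the 71 sequences, 11 were higher in both batches under all 5 scalings and 9 were lower.

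**Figure D2:**
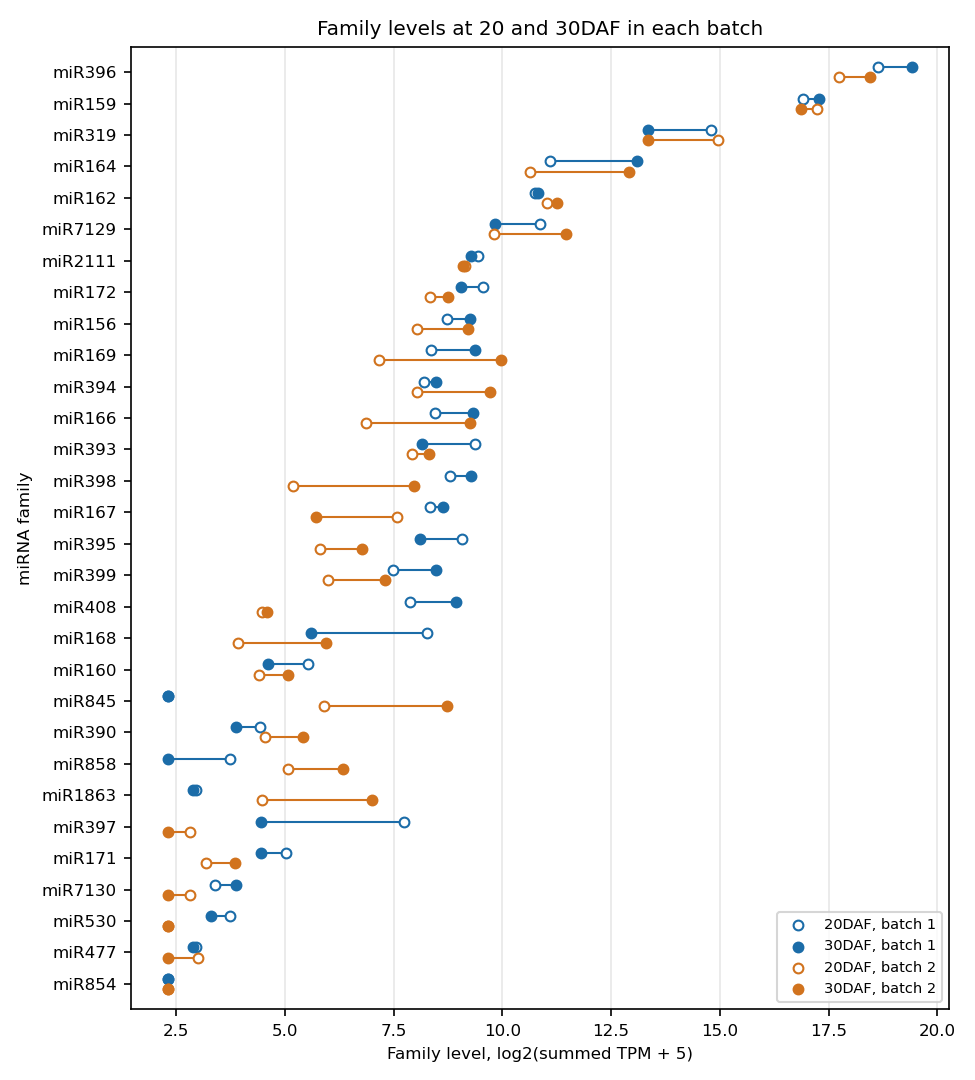
Summed level of each of the 30 families in log2(TPM + 5) at 20DAF (open circles) and 30DAF (filled circles), with the first batch in blue and the second in orange and a line joining the stages of a batch. The lines of miR164 and miR169 run to higher values in both batches, those of miR319 to lower values, and those of miR168 and miR7129 run in opposite directions.

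The family past the adjusted threshold, miR164, acts on NAC transcription factors. Its summed level was 2166 and 1580 TPM at 20DAF (first and second batch) and 8673 and 7642 TPM at 30DAF. Both 30DAF libraries lay far above both 20DAF libraries, and the batches differed by less than the stages. The share of reads was 4.0 times that of 20DAF in the first batch (95% interval 3.71 to 4.33) and 4.84 times in the second (4.44 to 5.27). The fitted rise was 2.13 ± 0.42 (SE) on the log2(TPM + 5) scale, with an unadjusted p of 0.000544 and an adjusted p of 0.0163 in limma, and an adjusted p of 0.0133 with the batch as a block (2.22e-08 to 0.332 over the alternatives). The adjusted p over 30 families was 0.0875 without the 20DAF library of the first batch, 0.310 without that of the second, 0.249 without the 30DAF library of the first batch and 0.146 without that of the second. The unadjusted call held under all 14 alternatives and without any of the 8 libraries, and the adjusted call was lost under 7 of the 14.

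Most of the rise lay in miR164c/d. It stood at 1133 and 1046 TPM at 20DAF and at 7475 and 5843 TPM at 30DAF, without overlap. The ratio was 6.6 (5.95 to 7.34) in the first batch and 5.58 (5.05 to 6.18) in the second. The fitted change was 2.60 ± 0.83 (SE), with an unadjusted p of 0.0180 and an adjusted p of 0.639 in limma. Its unadjusted p was 0.0609 to 0.0942 when any of the 4 compared libraries was left out. miR164a, which shares its seed, stood at 1002 and 504 TPM at 20DAF and at 1166 and 1761 TPM at 30DAF. It was close to level in the first batch, with a ratio of 1.16 (1.01 to 1.34), and higher in the second, with 3.49 (2.93 to 4.14). miR164b, whose seed differs by A7G from that of miR164a, was read at 29.4 to 38.1 TPM in all 4 libraries. The share of miR164c/d in its family was 52.3% and 66.2% at 20DAF and 86.2% and 76.5% at 30DAF, so the make-up of the family moved towards miR164c/d in both batches.

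**Figure D3:**
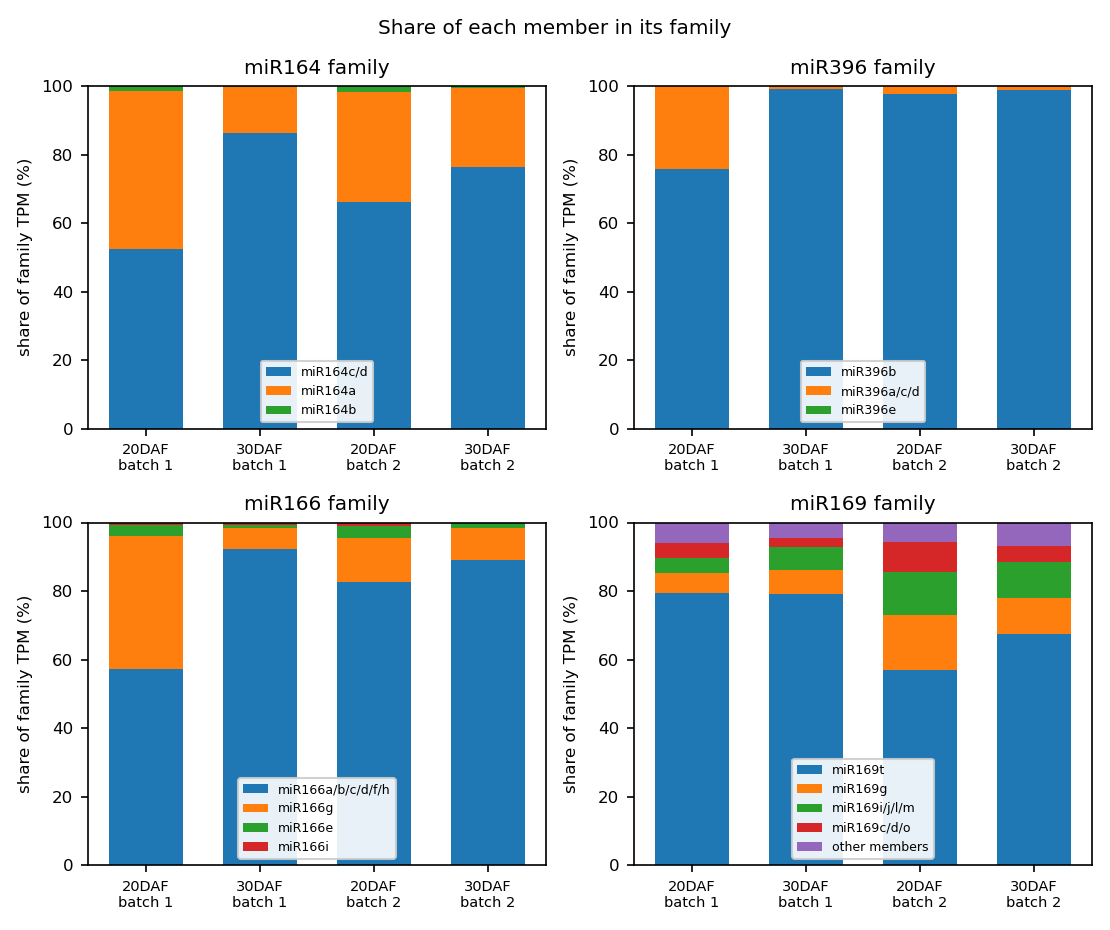
Share of each member in the summed TPM of its family (y axis, percent) in the 20DAF and 30DAF libraries of each batch, for the miR164, miR396, miR166 and miR169 families. The share of miR164c/d is larger at 30DAF in both batches, and that of miR396a/c/d goes from 24.3% to 0.839% in the first batch and from 2.11% to 0.974% in the second.

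The miR169 family, which acts on the NF-YA subunit of a CCAAT-binding complex, was also higher. Its summed level was 322 and 139 TPM at 20DAF and 652 and 990 TPM at 30DAF. Both 30DAF libraries were above both 20DAF libraries, and the second batch changed more, with a ratio of 7.12 (5.46 to 9.25) against 2.02 (1.62 to 2.54) in the first. The fitted change was 1.90 ± 0.73 (SE), with an unadjusted p of 0.0276 and an adjusted p of 0.414 in limma. The unadjusted p was 0.168 without the 20DAF library of the second batch, and 0.0615 and 0.162 without the 30DAF library of the first and second batch. The unadjusted limma call was kept under 11 of 14 alternatives and was lost with a scaling to the families outside miR159, miR319 and miR396 (a change of 0.91, with an unadjusted p of 0.157), also without miR164 (1.45, with 0.0610), and on the sum of the 71 sequences (1.45, with 0.0959).

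Within miR169 the longest member led. miR169t, of 23 nt, stood at 255 and 79.2 TPM at 20DAF and at 516 and 666 TPM at 30DAF. The groups did not overlap, and the fitted change was 2.0 ± 0.81 (SE) with an unadjusted p of 0.0453 in limma. That p was 0.107, 0.161 and 0.241 without the 30DAF library of the first batch, the 30DAF library of the second and the 20DAF library of the second, and 0.0684 and 0.0683 without the 10DAF library of the first and second batch. The unadjusted limma call was kept under 9 of 14 alternatives, and was lost on the 3 scalings that ended that of the family (changes of 1.02 to 1.56) and in both fits on only the 4 libraries (an unadjusted p of 0.0703, and 0.103 with the block). Another 4 members, none of which passed the threshold, did not overlap and were higher, beside 26.8% of all sequences. miR169i/j/l/m stood at 13.9 and 17.3 TPM at 20DAF and 43.8 and 105 TPM at 30DAF. miR169g stood at 19.4 and 22.3 TPM and then at 46.2 and 105 TPM. miR169k, which shares the seed of miR169t, went from 2.78 and 6.09 TPM, the first of these a single read, to 21.9 and 38.1 TPM. miR169c/d/o was the last of the 4, at 13.9 and 12.2 TPM and then 17.0 and 47.6 TPM. Of the 10 sequences of the family, 5 were higher in both batches, beside 25 of the 71, and 4 moved in opposite directions at a few reads, and miR169e/n had 0 reads in these 4 libraries. These 5 sequences hold 3 different seeds.

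The miR166 family acts on HD-ZIP III genes, which set organ polarity and vascular pattern in Arabidopsis. miR166a/b/c/d/f/h stood at 197 and 92.4 TPM at 20DAF and at 586 and 542 TPM at 30DAF. The 30DAF libraries were close to each other and both above the 20DAF libraries, with ratios of 2.98 (2.27 to 3.93) and 5.87 (4.14 to 8.27). The fitted change was 2.02 ± 0.82 (SE), with an unadjusted p of 0.0458 in limma, which was 0.0525 to 0.204 without any of the 4 compared libraries and 0.0536 and 0.0539 without the 40DAF library of the first and second batch. The unadjusted limma call was also lost with a scaling to the families outside miR159, miR319 and miR396 (a change of 1.04, with an unadjusted p of 0.112) and on the sum of the 71 sequences (1.57, with 0.141). miR166g, which is the same sequence without its last base, stood at 133 and 14.2 TPM at 20DAF and at 38.9 and 57.1 TPM at 30DAF. It was thus lower in the first batch, with a ratio of 0.292 (0.155 to 0.524), and higher in the second, with 4.02 (1.27 to 11.1). The family sum was 344 and 112 TPM at 20DAF and 635 and 609 TPM at 30DAF, with a fitted change of 1.64 ± 1.19 (SE) and an unadjusted p of 0.20 in limma.

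Of the abundant families, miR319 was lower at 30DAF. This family acts on TCP genes that restrain cell division in Arabidopsis leaves. Its summed level was 28569 and 31581 TPM at 20DAF and 10437 and 10392 TPM at 30DAF. The libraries of a stage were close to each other, and the ratio was 0.365 (0.353 to 0.379) in the first batch and 0.329 (0.310 to 0.350) in the second. The fitted change was −1.53 ± 0.68 (SE), with an unadjusted p of 0.0492 and an adjusted p of 0.492 in limma. The unadjusted p was 0.109 to 0.150 without any of the 4 compared libraries and 0.146 and 0.141 without the 10DAF library of the first and second batch, and it was 0.000139 and 7.6e-05 without the 40DAF library of either. The unadjusted limma call was kept under 8 of 13 alternatives and was lost at a pseudocount of 20 (an unadjusted p of 0.0671), with a mean of at least 10 TPM (0.0640), with no trend (0.137), with voom (0.0579) and on the sum of the 71 sequences (0.0650). miR319a/b stood at 20147 and 25038 TPM at 20DAF and at 7439 and 6652 TPM at 30DAF. miR319c/d stood at 8422 and 6543 TPM and then at 2998 and 3740 TPM. Neither overlapped between the stages, with unadjusted p of 0.0980 and 0.147 in limma.

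miR159, a family related to miR319 in sequence, acts on GAMYB-like genes. Its members went apart. miR159b stood at 3773 and 1840 TPM at 20DAF and at 749 and 1037 TPM at 30DAF. Both 30DAF libraries were below both 20DAF libraries, with ratios of 0.199 (0.175 to 0.225) and 0.564 (0.460 to 0.684). The fitted change was −1.57 ± 0.59 (SE), with an unadjusted p of 0.0338 in limma, which was 0.180 without the 20DAF library of the first batch, 0.140 without the 30DAF library of the first batch and 0.0644 without that of the second. With the batch as a block it was 0.0498 over all 8 libraries, 0.0927 on only the 4 libraries and 0.0661 in voom. miR159a, which carried nearly all of the family, stood at 119504 and 152008 TPM at 20DAF and at 157690 and 118266 TPM at 30DAF. It was higher in the first batch and lower in the second, and its fitted change was 0.02 ± 0.54 (SE). The pair differs by T1A, T20C and A21T from miR159a to miR159b and shares the seed. Without its first base miR159b is within the 1 mismatch allowed of miR319c/d, which was also lower. Whether reads of miR319c/d entered the value of miR159b was not tested.

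The most abundant sequence was miR396b, of the family that acts on GRFs. It stood at 308685 and 215164 TPM at 20DAF and at 691112 and 353950 TPM at 30DAF. Both 30DAF libraries were higher, with a fitted change of 0.94 ± 0.67 (SE) and an unadjusted p of 0.204 in limma, and the fitted direction turned to −0.06 with a scaling to the families outside miR159, miR319 and miR396. miR396a/c/d, which has another last base, stood at 99060 and 4644 TPM at 20DAF and at 5850 and 3483 TPM at 30DAF. The high value was that of a single library, the 20DAF library of the first batch, and the ratio was 0.0591 (0.0566 to 0.0616) in the first batch against 0.750 (0.672 to 0.834) in the second. Its fitted change was −2.25 ± 1.75 (SE), with an unadjusted p of 0.243 in limma, and it was −0.04 without that library. miR396e, whose seed differs by A7G from that of miR396b, was close to level as deposited, at 305 and 294 TPM at 20DAF and 311 and 381 TPM at 30DAF. Its mean change was −0.79 with a scaling to the families outside miR159, miR319 and miR396.

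Together, miR396b and miR159a held most of the summed TPM of the 71 sequences. Their share in this sum was 74.9% and 89.0% at 20DAF and 96.1% and 93.3% at 30DAF. The sum of the 71 was 571433 and 412477 TPM at 20DAF and 883434 and 506067 TPM at 30DAF. TPM are shares of the larger implied library total, and an effect of this pair on the TPM of the others was not tested. The families other than miR159, miR319 and miR396 together held 11537 and 6944 TPM at 20DAF and 17285 and 18558 TPM at 30DAF. Without miR164 they held 9371 and 5364 TPM and then 8612 and 10916 TPM, so outside miR164 the sum was lower in the first batch and higher in the second.

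**Figure D4:**
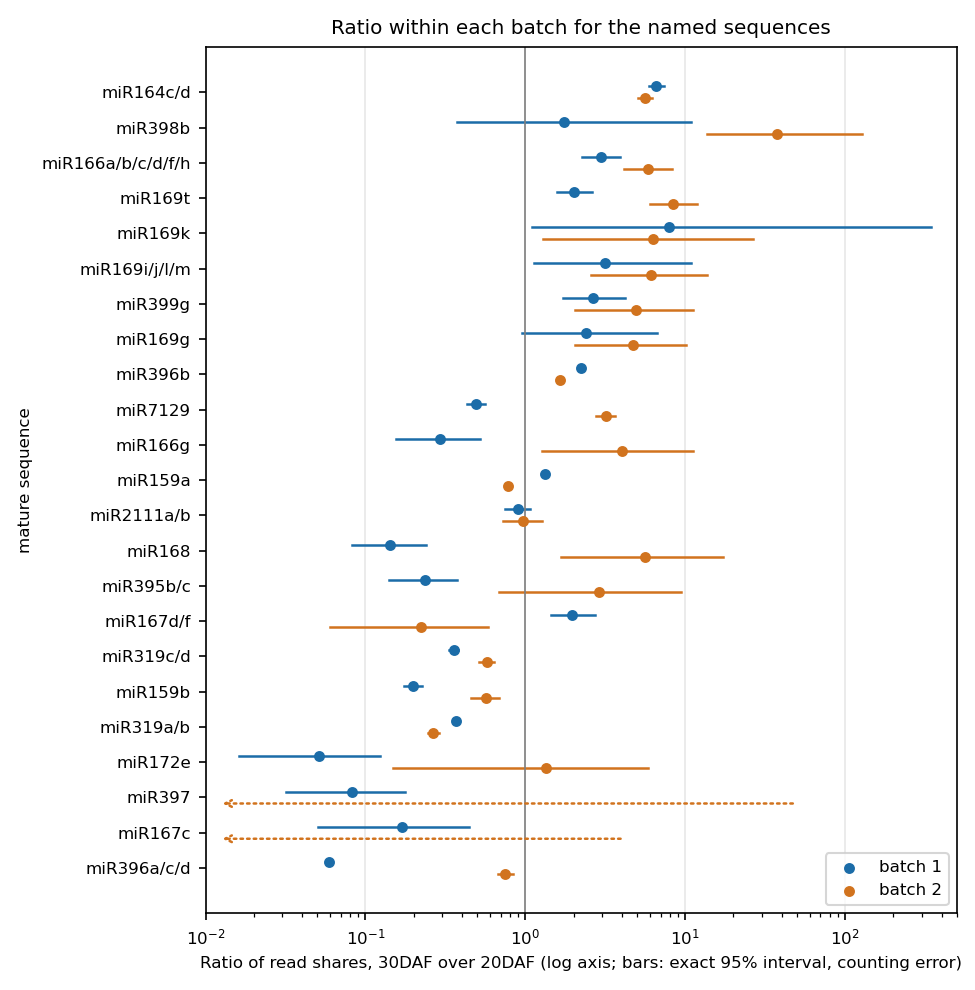
Ratio of the read share at 30DAF to that at 20DAF (log axis) in the first batch (blue) and the second batch (orange) for the 23 sequences named by rule, ordered by their mean change. Bars are exact 95% intervals for counting error, and arrows mark sequences with 0 reads at 30DAF in the second batch. Intervals of miR164c/d, miR169t and miR319a/b lie on the same side of 1 in both batches, and those of miR168, miR166g and miR7129 on opposite sides.

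The pair of miR156 and miR172, which mark early and late phases of plant development and act on SPL and AP2-like genes, was measured side by side. The miR156 family stood at 416 and 258 TPM at 20DAF and at 606 and 590 TPM at 30DAF. The family was higher without overlap, as were 16.7% of all families, and 5 of its 6 members were higher in both batches, beside 25 of the 71 sequences. Of these members, miR156e, miR156f and miR156g/h had 1 or 2 reads at 30DAF in the second batch. Their intervals held 1 in both batches. The fitted change of the family was 0.86 ± 0.72 (SE) with an unadjusted p of 0.260 in limma. It turned to −0.13 under scaling on the families other than miR159, miR319 and miR396. miR156j, of 22 nt, stood at 117 and 43.6 TPM and then at 241 and 133 TPM, and miR156a/c/d/i at 66.6 and 21.3 TPM and then at 112 and 95.2 TPM. The miR172 family went from 752 to 526 TPM in the first batch and from 317 to 428 TPM in the second. Its members shared a seed and did not share a direction. miR172e went from 239 to 12.2 TPM in the first batch and stood at 14.2 and 19.0 TPM in the second, while miR172b/c stood at 383 and 265 TPM at 20DAF and at 394 and 343 TPM at 30DAF. miR394, which acts on an F-box gene of the shoot meristem in Arabidopsis, was at 289 and 257 TPM at 20DAF and at 353 and 837 TPM at 30DAF, without overlap, with a fitted change of 0.99 ± 0.78 (SE) and an unadjusted p of 0.234 in limma, and it turned lower in the first batch under the scalings on other families and on the sum of the 71 sequences.

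Among the families that answer to nutrients, copper miRNAs did not move together. miR398, which acts on copper/zinc superoxide dismutases, was higher in both batches, at 439 and 31.5 TPM at 20DAF and 621 and 247 TPM at 30DAF, and turned lower in the first batch under the scalings on other families and on the sum of the 71 sequences. miR398a stood at 430 and 26.4 TPM at 20DAF and at 606 and 57.1 TPM at 30DAF. In the second batch most of the gain was that of miR398b, which stood at 8.33 and 5.07 TPM at 20DAF and at 14.6 and 190 TPM at 30DAF. The 30DAF library of the second batch alone was high, with a ratio of 37.5 (13.7 to 128), and the unadjusted p was 0.0737 in limma. miR397, which acts on laccases, went from 208 to 17.0 TPM in the first batch, a ratio of 0.0818 (0.0318 to 0.177), and had 2 reads and then 0 in the second. miR408, which acts on blue copper proteins, went from 230 to 484 TPM in the first batch and was at 17.3 and 19.0 TPM in the second.

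miR399, induced by phosphate starvation in Arabidopsis, stood at 175 and 58.9 TPM at 20DAF and at 348 and 152 TPM at 30DAF. It turned slightly lower in the second batch (−0.04 on the log2 scale) under the scaling on families other than miR159, miR319 and miR396. Its largest member was miR399g, of 22 nt, which stood at 80.5 and 19.3 TPM and then at 214 and 95.2 TPM. Its groups did not overlap, with ratios of 2.66 (1.73 to 4.20) and 4.94 (2.05 to 11.2) and an unadjusted p of 0.0984 in limma. It does not hold the seed that the other 5 members share, and its reverse complement is close to the sequence of miR399d/e. It may thus come from the opposite strand of a precursor, which was not tested, and its targets may differ. Its share of the family sum was 46.0% and 32.8% at 20DAF and 61.5% and 62.5% at 30DAF, so the family sum mixes unlike sequences. miR2111a/b, another phosphate miRNA, was level as deposited, at 694 and 563 TPM at 20DAF and 621 and 542 TPM at 30DAF. Both intervals of its ratio held 1 (0.748 to 1.07 and 0.720 to 1.27). Its mean change was −1.10 under scaling on other families, −0.58 by the median ratio, −0.56 on the sum and −0.55 on other families without miR164. The sulfate miRNA miR395b/c went from 239 to 56.0 TPM in the first batch and from 13.2 to 38.1 TPM in the second.

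The auxin families held no sequence that was higher in both batches. miR167, which acts on ARF6 and ARF8, went from 317 to 392 TPM in the first batch and from 186 to 47.6 TPM in the second. Its main member miR167d/f was at 169 and 171 TPM at 20DAF and at 333 and 38.1 TPM at 30DAF, with intervals on opposite sides of 1 (1.45 to 2.71 and 0.0601 to 0.582). miR167c, which differs from it at the last base (T21G from miR167c to miR167d/f), had lower values in both, at 72.2 and 10.2 TPM at 20DAF and 12.2 and 0 TPM at 30DAF. The ratio in the first batch was 0.169 (0.0505 to 0.446). In the second batch the values were 10 reads and then 0, with an interval of 0 to 4.18, so a fall there was not distinguishable from no change. miR393a/b/c, which acts on auxin receptors, went from 658 to 280 TPM in the first batch and from 238 to 314 TPM in the second.

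The miRNAs of the silencing machinery also parted. miR162, which acts on DICER-LIKE 1, was at 1724 and 2090 TPM at 20DAF and at 1793 and 2446 TPM at 30DAF. miR168, which acts on ARGONAUTE 1, went from 305 to 43.8 TPM in the first batch and from 10.2 to 57.1 TPM in the second. The miR168 values at 30DAF were close in the batches, on 18 and 6 reads, and at 20DAF that of the first batch was far higher, on 110 reads against 10. The ratio intervals were 0.0820 to 0.237 in the first batch and 1.68 to 17.1 in the second. miR7129, of 24 nt, went from 1846 to 903 TPM in the first batch and from 891 to 2836 TPM in the second, with intervals of 0.429 to 0.556 and 2.78 to 3.63. miR845 had 0 reads in both libraries of the first batch, which allows up to 8.33 TPM at 20DAF and 7.30 TPM at 30DAF, and in the second it went from 54.8 to 419 TPM.

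Sequences were also counted by the known targets of their families. The miR160 and miR167 families act on ARF genes, which are transcription factors too, but were placed with the auxin families, where no sequence was higher in both batches. The group of the other transcription factor families had 39 sequences, and of these 3 passed the unadjusted threshold higher and 1 lower, beside the 5.63% of all. In this group 18 of 39 were higher in both batches, 4 were lower in both and 13 moved in opposite directions. Over all 71 sequences these counts were 25, 9 and 26. Its median change over the 37 detected was 0.22 for the first batch and 0.86 for the second, beside 0.03 and 0.68 over all 66 detected. Of the 8 auxin sequences 0 were higher in both, 1 was lower and 5 were opposite, with medians of −0.79 and 0.46. Only 6 of the 8 were detected and 3 had over 3 reads in all 4 libraries, so the count says little about this group. Of the 4 copper sequences 3 were higher in both and 1 was lower, but only 1 of the 4 had over 3 reads in all 4 libraries. Of the 9 phosphate and sulfate sequences 2 were higher, 2 were lower and 4 were opposite. None of these other groups held a called sequence.

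By length, 51 of the 71 sequences were of 21 nt, with median changes of 0.03 and 0.59 in the batches. The 4 of 22 nt had medians of 1.19 and 2.17 and 3 of them were higher in both batches. The 11 of 20 nt, which include the miR319 sequences, had medians of −0.43 and 0.26, and the 3 of 24 nt all moved in opposite directions. By level, the 10 sequences of the highest mean TPM, among them those of miR159, miR319 and miR396b, had medians of −0.49 and −0.07, and the 16 in the class below them had 0.16 and 0.92. The counts in these classes are small and no test was made of them.

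Some sequences were read at 1 stage only. In the first batch 4 sequences were read at 20DAF only and 3 at 30DAF only, and none of those lost had over 3 reads. In the second batch 10 were read at 20DAF only and 3 at 30DAF only, with at most 10 reads in a lost sequence. The 30DAF library of that batch had the smallest implied total of the 8. At this total their absence at 30DAF was not distinguishable from a low level.

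The step from 20 to 30DAF took a different place in the course of each family. miR164 went on from 8673 and 7642 TPM at 30DAF to 11105 and 12245 TPM at 40DAF, and at 10DAF it stood at 1715 and 877 TPM. It was thus higher at each later stage in both batches. miR166a/b/c/d/f/h was highest at 30DAF in both batches, with 72.9 and 170 TPM at 40DAF. miR169t went to 781 TPM at 40DAF in the first batch and back to 282 TPM in the second. miR159b was already lower at 20DAF than at 10DAF, where it stood at 10337 and 6173 TPM. At 40DAF miR319 stood at 3153 and 18204 TPM, so the batches parted after 30DAF.

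**Figure D5:**
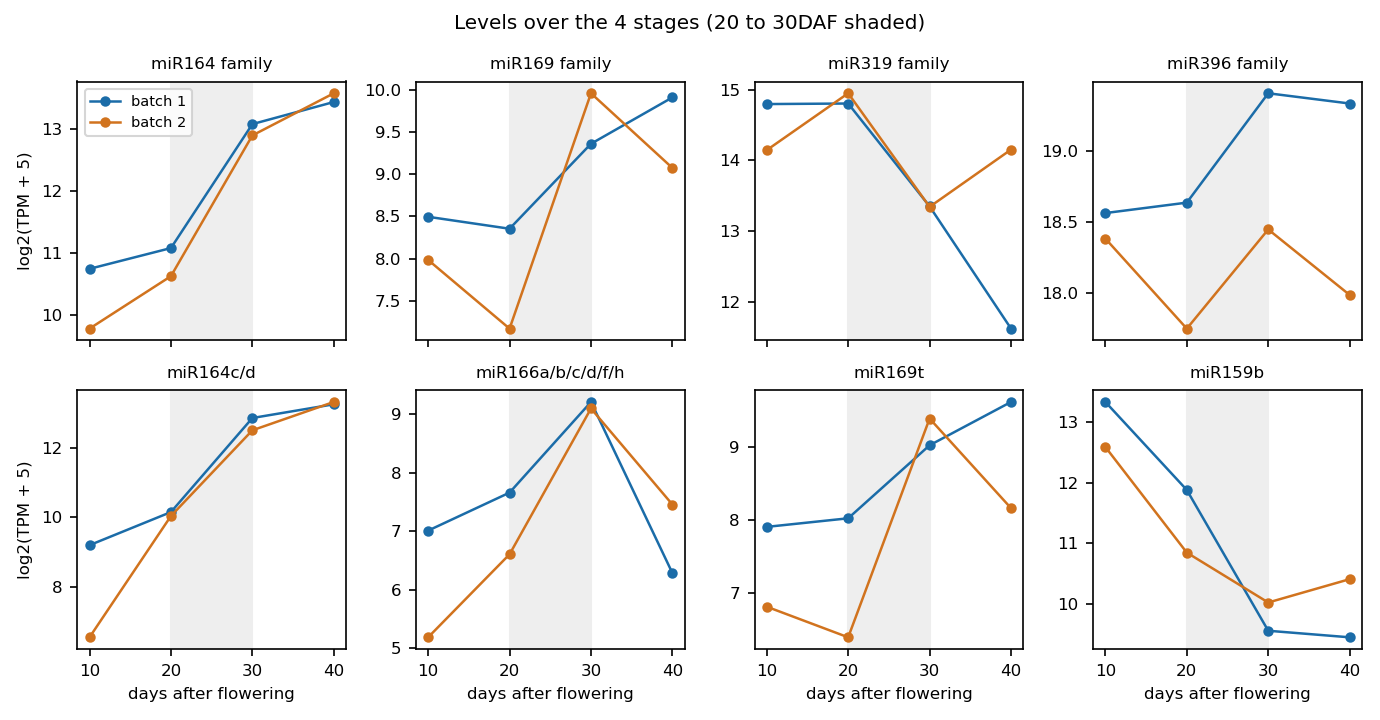
Levels in log2(TPM + 5) at 10, 20, 30 and 40 days after flowering (x axis) for the miR164, miR169, miR319 and miR396 families and for miR164c/d, miR166a/b/c/d/f/h, miR169t and miR159b, with 1 library per point, the first batch in blue and the second in orange. Each panel has its own scale. The shaded step from 20 to 30DAF runs upwards for miR164, miR166a/b/c/d/f/h and miR169t and downwards for miR319 and miR159b in both batches.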

How the data were processed

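Small RNA was measured in the mesocarp at 4 stages, each stage having 1 library from each of 2 batches. Per the study's methods and the processing notes, the authors removed adapter sequence and reads of low quality, and retained lengths of 18 to 30 nt. They discarded rRNA and tRNA reads and matched the rest to known plant miRNAs with Bowtie, allowing 1 mismatch. Read counts were divided by a total read count, and the deposited values are these TPM. What that total includes is not given in the sources used here. The totals implied by the TPM are far below the clean reads listed in the paper, so they do not measure the sequencing depth. Names that share a mature sequence carry the same value, and each sequence was kept once (71 of 116 names). On 1 line an extra field was dropped.

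Reads were recovered as TPM divided by the TPM of 1 read, and all low values were whole within 0.1 read. Values were fitted as log2(TPM + 5), so changes of low sequences are understated, with limma 3.58.1 (R 4.3.3, mean-variance trend) in a model of 4 stages over the 8 libraries. The contrast was 30DAF minus 20DAF, with calls at an unadjusted p under 0.05 and a fold over 1.5, the form of threshold in the study's methods, and at a Benjamini-Hochberg adjusted p under 0.05. The count-based test of the study was not run on TPM, and voom on recovered reads stood in for it. Within a batch the ratio of read shares was given with an exact conditional binomial interval, which covers counting error only since PCR reads are not independent molecules. The block is the sampling batch. The batch differences correlated between stages in all 6 pairs of stages, with a mean r of 0.498 (0.352 to 0.664).

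Sequences named were every called one, the 8 with the largest mean rise and up to 8 with the largest mean fall among those of at least 10 TPM on average that moved the same way in both batches (7 falls met this), the 6 most abundant, and the 6 with the largest opposite changes. Other members of their families, and members chosen after their values were seen (miR164a, miR164b, miR156j, miR156a/c/d/i, miR169c/d/o, miR169e/n, miR172b/c, miR393a/b/c, miR396e, miR408, miR162 and miR845), are given as context. The members, lists and groups were chosen with earlier results of these data known. Alternatives were pseudocounts of 1 and 20, a mean of at least 10 TPM, 4 other scalings, only the 4 libraries, the batch as a block, no trend, voom, every name, over 3 reads in all 4 libraries, miR319 placed in miR159, and each library left out. The steps were tested on simulated data. Tables and intervals were made in Python 3.11.15 (scipy 1.17.1, numpy 2.4.6, pandas 2.3.3). Those miRNAs specific to Hami melon were not analysed here.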

Additional observations from a re-analysis of the deposited data

How the results depend on the processing

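Each stage has 1 library per batch, so every contrast rests on 4 libraries. Low sequences are limited by the implied total of 105077 reads in the 30DAF library of the second batch. The 4 sequences past the unadjusted threshold became 7 under scaling on the families other than miR159, miR319 and miR396, 8 with only the 4 libraries, 8 with no mean-variance trend, 10 over every name and 2 under scaling on the sum of the 71 sequences, and 0 to 6 with a library left out. The 0 past the adjusted threshold became 1 under scaling on the families other than miR159, miR319 and miR396, 2 with only the 4 libraries and 1 when miR164 was also left out of that scaling, and was 0 to 2 with a library left out. The 3 families became 1 under scaling on the sum and 1 to 3 with a library left out. The 1 family past the adjusted threshold became 0 with a mean of at least 10 TPM, under the scalings on other families (with or without miR164) and on the sum, with no trend, with voom and with miR319 placed in miR159. It became 2 with only the 4 libraries and 3 with the replicate block on those libraries, and was 0 to 2 with a library left out. The cause was not tested. With the replicate block over all 8 libraries the counts were 5 and 3, with 0 sequences and 1 family after adjustment, and no other call changed.

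The miR164 change kept its direction and lost the adjusted call with a mean of at least 10 TPM (2.13, adjusted p = 0.0743 in limma), with no trend (2.13, 0.332), with voom (2.13, 0.138), with miR319 placed in miR159 (2.13, 0.143), and under scaling on other families (1.14, 0.0801), also without miR164 (1.68, 0.0679), and on the sum (1.67, 0.291). The filter on mean TPM, no trend and the placing of miR319 in miR159 cannot alter the miR164 change, only its p. With a library left out the change was 1.91 to 2.36.

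Of the 23 named sequences, 17 kept their direction under all of their 13 or 14 alternatives, and 13 did so also with each library left out. Several of these settings cannot reverse a sign. The filter on mean TPM, the block in limma, no trend, every name and the fit without the other stages leave the fitted change as it was. Leaving out a library of the first or last stage does so too. The named rises and falls were also chosen for moving the same way in both batches. These counts therefore say little about robustness. The median fitted change of the 71 was 0.15 as deposited, −0.31 under scaling on other families, −0.05 by the median ratio, −0.14 on the sum, −0.01 on other families without miR164 and 0.77 with voom. In that order of scalings, omitting voom, miR159a turned to −0.98, −0.46, −0.44 and −0.43, miR166g to −0.83, −0.36, −0.35 and −0.34, and miR7129 to −0.68, −0.16, −0.14 and −0.13. On other families miR396b turned to −0.060, miR156 to −0.13 and miR396 to −0.26. miR166g was also −0.10 at a pseudocount of 20 and −0.39 with voom and the block, miR168 was 0.67 and miR395b/c 0.49 with voom. With a library left out, changes that turned sign ran from −0.19 to 0.23 for miR159a, −1.41 to 1.44 for miR166g, −2.02 to 0.95 for miR167d/f, −2.50 to 1.86 for miR168, −3.59 to 0.081 for miR172e, −2.25 to 1.49 for miR395b/c, −4.35 to 0.58 for miR397, −0.26 to 0.042 for miR2111a/b and −0.50 to 1.14 for miR7129.

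Of the counts within batches, the 25 higher in both became 11 on other families, 14 on the sum and 43 over every name. The 9 lower in both became 27 on other families, 16 by the median ratio, 15 without miR164, 14 over every name and 5 with over 3 reads. The 26 in opposite directions became 17 with a mean of at least 10 TPM, 10 with over 3 reads and 44 over every name. The 8 higher by over 1 became 3 at a pseudocount of 20, 1 on other families, 2 on the sum and 17 over every name. The 2 lower by over 1 became 5 at a pseudocount of 1, 1 at 20, 6 on other families, 5 by the median ratio, 4 on the sum, 5 without miR164 and 1 with over 3 reads. The scalings on the sum and without miR164, the filter on over 3 reads and voom with the block were chosen after seeing the data.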
